A study of Rattus norvegicus with 65 samples.

Results

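The genes of brain-derived neurotrophic factor (Bdnf), neurotrophin-3 (Ntf3) and the receptors TrkB (Ntrk2), TrkC (Ntrk3) and p75 (Ngfr) were followed in the hypothalamus of obese rats after gastric bypass, weight matching by food restriction, or treatment with gut hormone analogues. The 5 genes were taken by symbol from the 38513 genes of the count table, and all 5 were among the 21871 genes tested. Hypothalami of adult male Wistar rats were sequenced as poly-A RNA in 65 libraries. The rats were 9 to 10 weeks old at the start and were killed 4 weeks after the intervention following a 10 h fast. Before it they had eaten a high-fat diet for 6 weeks to become obese, which the sources used here do not state for the group labelled Lean.

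The groups were Sham (sham operation, n = 11), Bypass (Roux-en-Y gastric bypass, n = 14), BWM (sham-operated rats given less food so that their weight followed that of bypass rats, a match that per the study was lost in the last week, n = 7), Lean (n = 6, a label that gives neither diet nor treatment), Saline (n = 8), Lira (liraglutide, a GLP-1 receptor agonist, 0.4 mg/kg/day injected subcutaneously, n = 5), PYY (the gut peptide PYY3-36, 0.1 mg/kg/day by minipump, n = 4) and PYY_Lira (both drugs, n = 10). Saline rats received saline by both routes. Per the study, all groups but BWM ate freely from a choice of high- and low-fat food. Its list of groups does not name Lean, whose food is not known here. The experiments ran in 2 periods, batch A with 37 libraries and batch B with 28, which also differed in library fragment size. BWM and Lean were in batch A alone, Lira and PYY in batch B alone, and the other groups in both. Library totals ran from 25912861 to 36539714 counts in batch A and from 20040821 to 35011015 in batch B. Each library is treated as 1 rat.

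Neurotrophins are secreted as precursors, cut by proteases and bound by Trk receptor tyrosine kinases. BDNF acts through TrkB and neurotrophin-3 mainly through TrkC, while p75 binds both of them as well as their precursors. In the hypothalamus, BDNF and TrkB restrain food intake and body weight, and loss of either leads to overeating and obesity in rodents and people. Ntrk2 and Ntrk3 each give a full-length receptor and truncated forms that lack the kinase. Truncated TrkB is abundant in astrocytes, and p75 marks the cholinergic neurons of the basal forebrain.

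Bdnf lies on chromosome 3 from 100768637 to 100819216 on the plus strand of Rnor_6.0, with 6375 exonic bases. Ntf3 is on the minus strand of chromosome 4 from 158636883 to 158705886 with 1774 exonic bases. Ntrk2 spans 5934651 to 6245778 on the minus strand of chromosome 17 with 15840 exonic bases, and its span is shared with LOC102548918 on the same strand and LOC108353117 on the other. Ntrk3 covers 139890537 to 140262503 on the minus strand of chromosome 1 with 5026 exonic bases, and Ngfr covers 83389828 to 83408061 on the minus strand of chromosome 10 with 3561. Reads were summed over all exons of a gene, so the counts join the transcripts of every Bdnf start and join full-length with truncated Ntrk2 and Ntrk3.

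RefSeq gave 6 promoter windows of 300 bases for Bdnf and 3 for Ntf3 on build GRCr8, each from 250 bases before a transcript start. Separate starts give Bdnf transcripts that share the coding exon, and the start sites are given because the gene-level counts cannot separate them. The letters TGACG, the core of the element bound by CREB, were searched on both strands and are in capitals. They were found in 1 of the 6 Bdnf windows and in 0 of the 3 Ntf3 windows, beside 21.2% of all 33469 windows of this length, and a match is a description of letters, not of binding. Windows can overlap, as do those of Ntf3 from 160670573 and 160670574 and those of Bdnf from 116639552 and 116639608. The first Bdnf start, the start with the match and 1 Ntf3 start are printed, each on its gene's strand.
Bdnf, chr3:116619383-116619682, plus strand: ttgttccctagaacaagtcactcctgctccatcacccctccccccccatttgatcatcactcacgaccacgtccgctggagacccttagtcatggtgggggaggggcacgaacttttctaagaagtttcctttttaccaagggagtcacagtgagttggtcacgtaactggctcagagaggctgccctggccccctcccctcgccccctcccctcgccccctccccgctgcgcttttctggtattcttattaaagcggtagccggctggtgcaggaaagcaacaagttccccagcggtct
Bdnf, chr3:116637608-116637907, plus strand: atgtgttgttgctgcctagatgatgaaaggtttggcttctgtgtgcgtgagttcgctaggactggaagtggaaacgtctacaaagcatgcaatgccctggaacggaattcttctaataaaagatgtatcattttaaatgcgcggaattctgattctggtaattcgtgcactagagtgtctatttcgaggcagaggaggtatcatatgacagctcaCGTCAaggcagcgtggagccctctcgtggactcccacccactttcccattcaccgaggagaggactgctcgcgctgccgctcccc
Ntf3, chr4:160670574-160670873, minus strand: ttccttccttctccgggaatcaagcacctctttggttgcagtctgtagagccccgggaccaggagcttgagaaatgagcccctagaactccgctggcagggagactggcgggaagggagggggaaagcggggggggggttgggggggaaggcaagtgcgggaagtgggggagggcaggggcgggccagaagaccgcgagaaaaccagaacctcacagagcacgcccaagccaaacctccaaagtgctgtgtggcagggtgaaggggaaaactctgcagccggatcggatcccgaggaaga
No window was used here for Ntrk2, Ntrk3 and Ngfr.

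Some libraries held little RNA of the hypothalamus, which matters for every value that follows. The summed level of 12 hypothalamic markers (Agrp, Npy, Pomc, Avp, Oxt, Hcrt, Pmch, Nr5a1, Sim1, Otp, Nkx2-1 and Gal) was 47.3 to 160 CPM (counts scaled to the library total) in 12 libraries and 389 to 7490 CPM in the other 53. The 12 libraries were Sham replicates 2, 6 and 10, BWM replicate 1, Lean replicates 2 and 5, Saline replicates 3 and 4, Lira replicates 3 and 4, PYY replicate 2 and PYY_Lira replicate 8, and there was no Bypass library among them. Their sums of 8 markers of cortex and hippocampus had a median of 418 CPM beside 101 CPM in the others, and those of 7 striatal markers 762 CPM beside 263 CPM. The limit of 200 CPM was set after the values were seen, and values without these libraries are given beside the results that they moved most. In bulk tissue, fewer cells of a type cannot be told apart from less RNA per cell.

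Per exonic length, the Trk receptor genes Ntrk2 and Ntrk3 were the abundant members, Ngfr and Bdnf were lower and Ntf3 was the scarcest. Over the 65 libraries the median level was 68.3 TPM (a level per exonic length of the gene) for Ntrk2, 41.9 TPM for Ntrk3, 6.81 TPM for Ngfr, 3.89 TPM for Bdnf and 0.879 TPM for Ntf3. Outside the 5 genes, the sorting receptor gene Sort1 had a median of 96.0 TPM and Ntf4, the gene of the other TrkB ligand, 0.340 TPM.

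The members also differed in how much they varied from rat to rat. In normalised counts, scaled by library size factors, Ntrk2 ran from 8408 to 20130 with a median of 13110, a 2.40-fold span, and Ntrk3 from 1309 to 4017 with a median of 2706, a 3.07-fold span. Bdnf ran from 9.68 in Sham replicate 10 to 1477 in Sham replicate 2, with a median of 296.3, a 153-fold span. Ngfr spanned 320-fold, from 7.27 in Sham replicate 6 to 2328 in Saline replicate 3 around a median of 314.1. Ntf3 was at 0 in 3 libraries (PYY_Lira replicates 6 and 7 and Saline replicate 3), had a median of 19.9 and reached 399.4 in Sham replicate 2. The SD of log2(CPM + 1) within a group and batch placed Ngfr at percentile 99.8 of 21798 gene symbols, Bdnf at 98 and Ntf3 at 93.2, whereas Ntrk3 was at 43.0 and Ntrk2 at 39.4. Without the 12 libraries the span of Bdnf narrowed to 105 to 706.6 and that of Ngfr was still 19.5 to 2065.

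**Figure D1:**
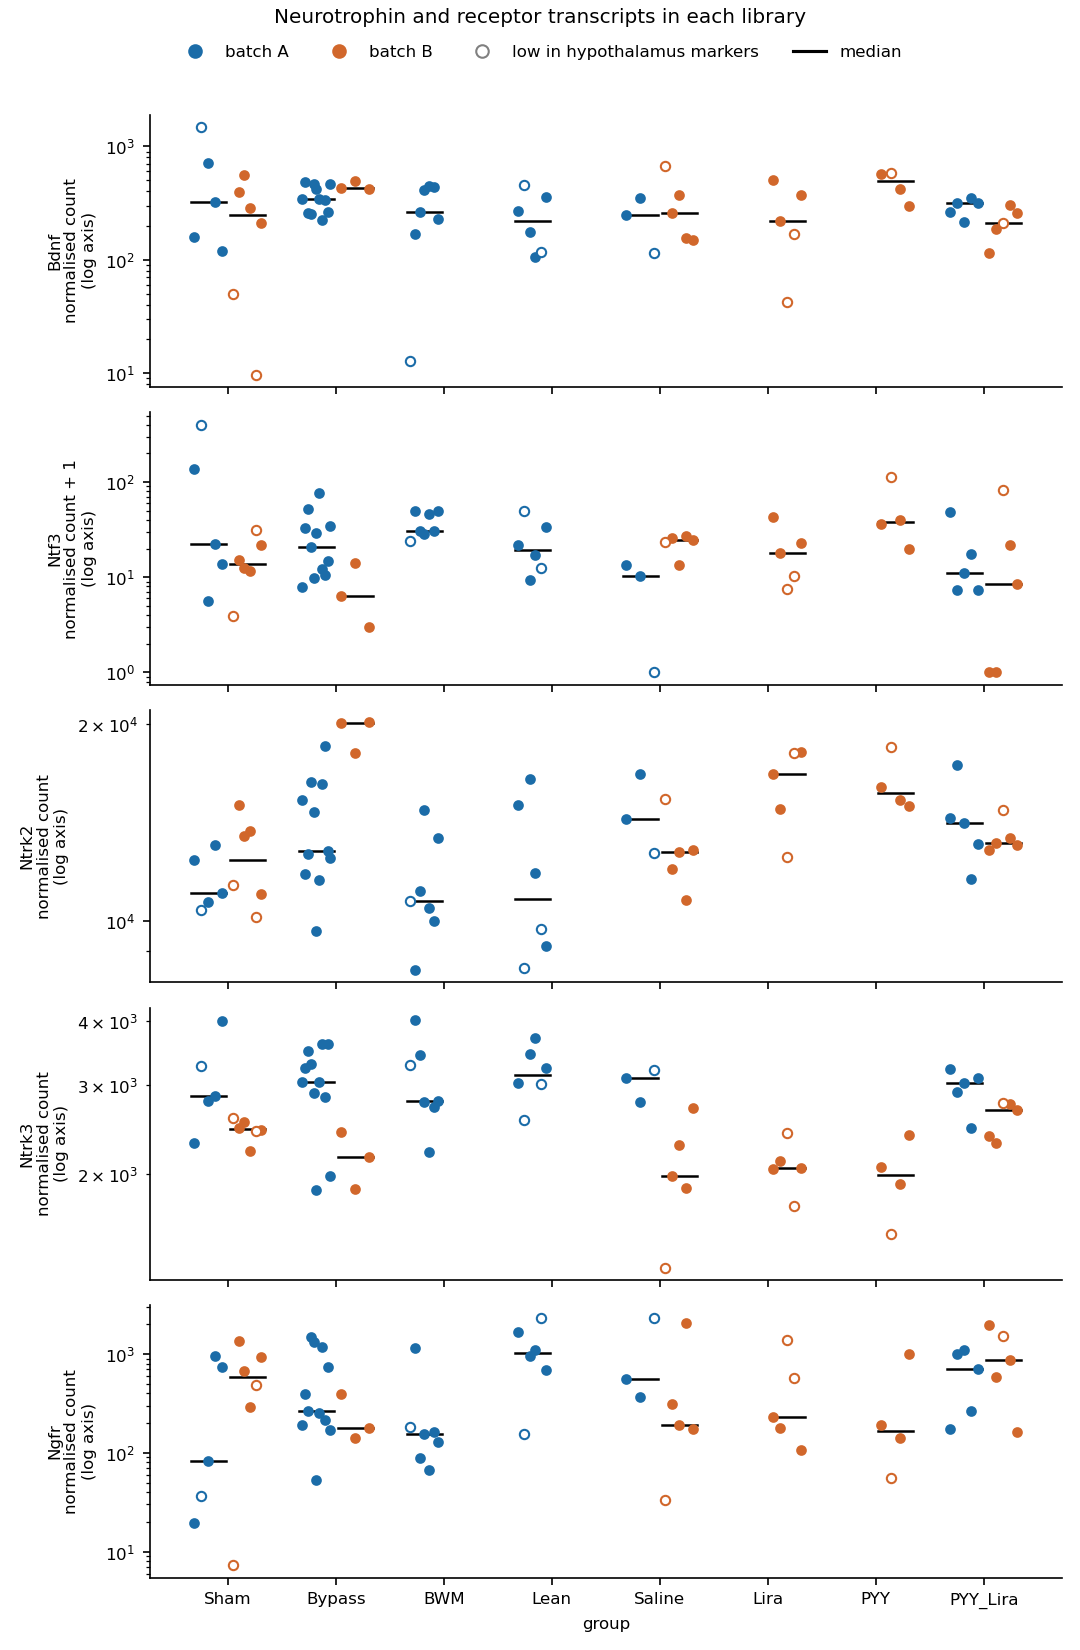
Normalised counts of the 5 genes in each of the 65 libraries, on log axes (Ntf3 with 1 added), by group on the horizontal axis, with batch A in blue, batch B in orange, medians as lines and the 12 libraries low in hypothalamus markers as open circles. The lowest Bdnf values (9.68, 12.8, 42.3 and 49.4) are all open circles. For Ntrk2 the 3 Bypass libraries of batch B lie at 18100 to 20130, above every Sham library. Bypass replicate 9 of batch A (18530) and PYY replicate 2 (18480) lie within that range.

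Across 8 comparisons between groups, 1 of 40 tests of a member passed the threshold, an adjusted p under 0.05 over all tested genes in edgeR's quasi-likelihood test with group and batch in the model. That member was Ntrk2 in Bypass against Sham. The number of genes called in the same comparisons ranged widely, which is given beside each.

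Ntrk2, which codes for TrkB, was higher after bypass than after the sham operation. In batch A its normalised counts were 13080, 12390, 11030, 10680 and 10380 in the 5 Sham libraries, and ran from 9645 to 18530 with a median of 12800 in the 11 Bypass libraries. In batch B the 6 Sham libraries ran from 10140 to 15060 with a median of 12400, and the 3 Bypass libraries had 18100, 20070 and 20130. Thus the groups overlapped in batch A, where 10 of 11 Bypass libraries lay above the Sham median, and did not overlap in batch B. The share of all genes without overlap there is not given. Within batch B 21.8% of tested genes had an unadjusted p under 0.05 by edgeR, and that of Ntrk2 was 0.0002445. This share is not a measure of overlap, so whether such separation is particular to Ntrk2 is not known. The fitted log2 difference over both batches was 0.34 ± 0.10 (SE; 95% interval 0.13 to 0.54), an increase of 26.3%, with an adjusted p of 0.0257 by edgeR. In this comparison 13% of the tested genes were called in either direction and 6.52% as higher, so 1 called gene among 5 members is near the background.

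The size of the Ntrk2 difference was not the same in both batches, although the difference between batches did not pass its test. It was 0.24 ± 0.13 within batch A (adjusted p = 0.230 by edgeR) and 0.64 ± 0.16 within batch B (adjusted p = 0.0290; 2.74% of genes called), and batch B minus batch A was 0.40 ± 0.21 (adjusted p = 0.510). The pooled call was lost when 1 of 4 libraries was left out. These were Bypass replicates 12, 13 and 14, without which the difference was 0.30, 0.31 and 0.29 (adjusted p = 0.0635, 0.0555 and 0.0644), and Sham replicate 5, without which it was 0.33 (adjusted p = 0.0515). The call within batch B was lost when any of 6 of its 9 libraries was left out, namely Bypass replicates 12, 13 and 14 and Sham replicates 6, 10 and 11, at differences of 0.59 to 0.68. Without the libraries low in hypothalamus markers the pooled difference was 0.28 ± 0.11 (adjusted p = 0.120) and that within batch B 0.54 ± 0.17 (adjusted p = 0.151). Against Saline, the other control with free access to food, the Bypass value was 0.18 ± 0.11 higher (adjusted p = 0.9999).

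Several marker sums moved with this difference. Ntrk2 followed the summed level of 8 astrocyte markers (Gfap, Aqp4, Slc1a3, Slc1a2, Aldh1l1, Gjb6, Sox9 and Aldoc), with Pearson's r = 0.555 and Spearman's rho = 0.583 over 65 libraries after batch means were taken off. Each had a permutation p of 1e-05, the smallest that 100000 resamples within batch can give, and adjusted values of 0.00017 and 0.00021 over the 105 relations of 5 members with 21 lists. The Pearson value was 0.540 without the 2 libraries farthest from the median, 0.514 within batch A, 0.638 within batch B and 0.479 over the 53 libraries. The astrocyte sum was 4647 to 5240 CPM in the 3 Bypass libraries of batch B and 3313 to 4944 CPM in the 6 Sham libraries of that batch, and in batch A the medians were 3679 CPM in Bypass and 3072 CPM in Sham. The sum of mitochondrial rRNA, with which Ntrk2 had r = -0.548 (rho = -0.544; permutation p = 1e-05 and 2e-05, adjusted p = 0.00017 and 0.00035; r = -0.520 without the 2 farthest libraries, -0.545 within batch A and -0.554 within batch B), had medians of 8403 CPM in Bypass and 11900 CPM in Sham in batch A, and of 9761 and 20410 CPM in batch B. The sum of 6 genes listed for the ventromedial nucleus (Nr5a1, Fezf1, Sox14, Adcyap1, Nptx2 and Gda) had batch A medians of 147.6 CPM in Bypass and 81.8 CPM in Sham. In batch B they were 174.2 and 84.4 CPM. This sum is no sure measure of that nucleus. Its median over all libraries was 124 CPM. In the libraries low in hypothalamus markers it ran from 35.7 CPM (Sham replicate 6) to 179.2 CPM (BWM replicate 1). Ntrk2 had r = 0.532 and rho = 0.587 with it (permutation p = 2e-05 and 1e-05, adjusted p = 0.0003 and 0.00021), with r = 0.476 without the 2 farthest libraries, 0.615 within batch A, 0.448 within batch B and 0.621 over the 53 libraries. The part of these in the Ntrk2 difference was not tested.

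Ntf3, the neurotrophin-3 gene, had the largest fitted difference of the 5 members between Bypass and Sham, and 1 Sham library carried most of it. In batch A the 5 Sham libraries had normalised counts of 399.4, 137.2, 21.4, 12.7 and 4.66, and the 11 Bypass libraries ran from 6.93 to 76.7 with a median of 19.9. In batch B the 6 Sham libraries ran from 2.91 to 30.4 with a median of 12.9, and the 3 Bypass libraries had 13.04, 5.28 and 2.02. Hence Sham replicates 1 and 2 stood above all other Sham and all Bypass libraries, and the remaining values overlapped. The log2 difference was -1.59 ± 0.57 with an adjusted p of 0.0535 by edgeR, just outside the threshold, and -2.16 ± 0.65 within batch A with an adjusted p of 0.0295, where 8.64% of genes were called. Within batch B it was -1.14 ± 1.06 (adjusted p = 0.566).

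Sham replicate 2, with 461 of the reads assigned to Ntf3, was 1 of the 12 libraries low in hypothalamus markers (50.9 CPM) and had the highest sum of cortical and hippocampal markers, 1841 CPM. Without it the pooled Ntf3 difference was -0.44 (adjusted p = 0.644) and that within batch A -0.75 (adjusted p = 0.559). Leaving out Bypass replicate 9 took the value within batch A to an adjusted p of 0.0501. Conversely, leaving out Bypass replicate 3, 6, 7 or 11 or Sham replicate 3, 6, 7, 8 or 9 brought the pooled value past the threshold, at adjusted p-values down to 0.0297. Without all 12 libraries the pooled difference was -0.67 ± 0.50 (adjusted p = 0.416) and that within batch A -0.74 ± 0.60 (adjusted p = 0.487). Sham replicate 1, the other high library, had the lowest hypothalamus sum outside the 12 (389 CPM) and the highest sum of 7 thalamic markers, 1294 CPM.

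**Figure D2:**
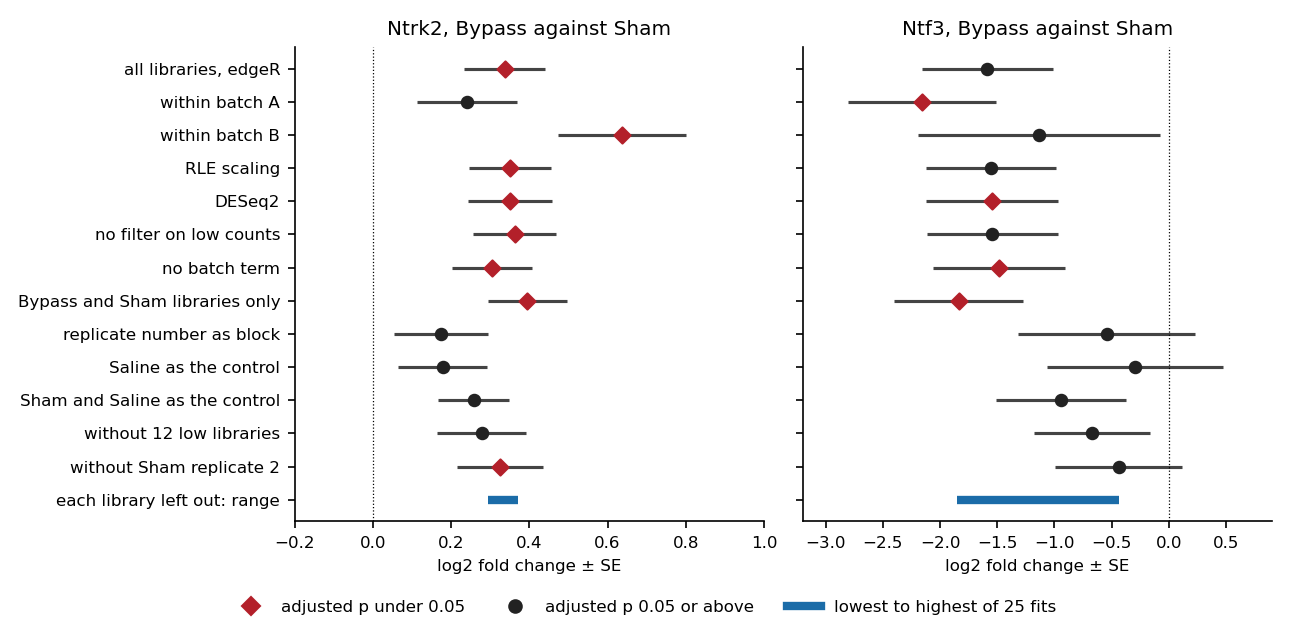
Log2 fold change of Ntrk2 (left) and Ntf3 (right) between Bypass and Sham, with bars of 1 SE, under each way of fitting, with red diamonds where the adjusted p was under 0.05 and a blue bar for the range over the 25 fits that each left out 1 library. Ntrk2 stays between 0.17 and 0.64, whereas Ntf3 moves from -1.59 to -0.44 without Sham replicate 2.

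Bdnf was not called in any comparison, and its values followed single libraries more than groups. Sham libraries ran from 120 to 1477 normalised counts in batch A and from 9.68 to 554.8 in batch B, whereas the 14 Bypass libraries lay within 224.5 to 499.4. Therefore every Bypass library was inside the range of the Sham libraries. The log2 difference between Bypass and Sham was -0.12 ± 0.39 (95% interval -0.90 to 0.66; adjusted p = 0.866), with -0.70 ± 0.49 within batch A and 0.83 ± 0.65 within batch B. Without Sham replicate 2 it was 0.38, and without the 12 libraries 0.10 ± 0.26 (95% interval -0.41 to 0.61).

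The 4 lowest Bdnf values were 9.68 in Sham replicate 10, 12.8 in BWM replicate 1, 42.3 in Lira replicate 3 and 49.4 in Sham replicate 6. These 4 libraries had striatal marker sums of 1126 to 4177 CPM (a list that includes Ppp1r1b, Drd1, Drd2, Adora2a, Rgs9 and Pde10a), beside a median of 327.9 CPM over all libraries, and all were low in hypothalamus markers. Over the 65 libraries Bdnf and the striatal sum had r = -0.639 and rho = -0.494 (permutation p = 1e-05 and 3e-05, adjusted p = 0.00017 and 0.00045 over the 105 relations). The Pearson value was -0.513 without the 2 farthest libraries, -0.576 within batch A, -0.696 within batch B and -0.554 over the 53 libraries. The striatal sum was not the only one related to Bdnf. With the sum of basal forebrain cholinergic markers described below, Bdnf had r = -0.56 and rho = -0.624 (permutation test, adjusted p = 0.00017 and 0.00021). With the ventromedial list r was 0.423 (adjusted p = 0.008), but 0.096 within batch A and 0.718 within batch B. With the astrocyte sum r was 0.329 (adjusted p = 0.042). Sham replicate 2, the library with the most Bdnf, held the most cortical and hippocampal RNA, as given above, and Saline replicate 4 and PYY replicate 2, with 675.3 and 577 counts of Bdnf, had sums of that list of 1266 and 845.5 CPM. Over all libraries Bdnf and that list had r = -0.043.

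Ntrk3, the TrkC gene, was called in none of the 8 comparisons, in which its log2 differences ran from -0.13 ± 0.15 in PYY against Saline to 0.17 ± 0.11 in PYY_Lira against Saline. It was -0.09 ± 0.10 between Bypass and Sham (95% interval -0.29 to 0.11), -0.04 ± 0.12 between BWM and Sham and 0.03 ± 0.13 between Lean and Sham. In PYY_Lira against Saline it was 0.34 ± 0.15 within batch B (unadjusted p = 0.0274, adjusted p = 0.834), and 0.17 ± 0.16 there without the 12 libraries. Between batches it was called. In the groups with libraries in both batches, mean normalised counts in batch A and batch B were 2989 ± 592 (SD, n = 11) and 2150 ± 278 (n = 3) for Bypass, 3023 ± 227 (n = 3) and 2029 ± 512 (n = 5) for Saline, 3040 ± 638 (n = 5) and 2446 ± 124 (n = 6) for Sham, and 2939 ± 291 (n = 5) and 2571 ± 216 (n = 5) for PYY_Lira. The log2 difference of batch B from batch A was -0.36 ± 0.08 (adjusted p = 0.00016), and -0.34 ± 0.08 without the 12 libraries (adjusted p = 0.000841), where Ntf3 was also called, at -1.19 (adjusted p = 0.0332). Over all libraries Ntrk3 was the 1 member called in that contrast, in which 40.7% of the tested genes were.

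Ngfr, the gene of p75, differed so much among rats of the same group that the intervals of its differences spanned several log2 units. In Bypass the counts ran from 53.7 to 1473 and in Sham from 7.27 to 1351, and the log2 difference was -0.06 ± 0.68 (95% interval -1.42 to 1.30; adjusted p = 0.966). The within-batch values had opposite signs, 0.64 ± 0.84 in batch A and -1.40 ± 1.14 in batch B, and neither passed the test. Lean rats had the highest mean in batch A, 1146 ± 758 (SD, n = 6), and 4 of the 6 lay above every Sham library of that batch. The highest of these 4, Lean replicate 5 at 2323, was low in hypothalamus markers. The log2 difference between Lean and Sham was 1.15 ± 0.83 (adjusted p = 0.589) and 1.66 ± 0.95 within batch A (adjusted p = 0.4). Without the 12 libraries these were 0.93 ± 0.85 and 1.30 ± 0.94 (adjusted p = 0.688 and 0.548 by edgeR).

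The spread of Ngfr ran with that of cholinergic genes. Among the 3 genes whose levels followed it most closely over the 65 libraries, out of all genes tested and after batch means were taken off, were Slc18a3, the vesicular acetylcholine transporter (r = 0.876), and Slc5a7, the high-affinity choline transporter (r = 0.842). Over the 53 libraries the values were 0.916 and 0.904. The sum of 7 markers of basal forebrain cholinergic neurons, a list that includes Slc18a3, Slc5a7, Chat, Lhx8, Gbx1 and Zic4, ran from 9.26 CPM in BWM replicate 5 to 353 CPM in Lean replicate 5. It had r = 0.842 and rho = 0.848 with Ngfr (permutation p = 1e-05 for both, adjusted p = 0.00017 and 0.00021), with r = 0.829 without the 2 farthest libraries, 0.855 within batch A and 0.826 within batch B. Saline replicate 3, Lean replicate 5 and Saline replicate 7, the libraries with the most Ngfr (2328, 2323 and 2065), had sums of 320.6, 352.8 and 304.6 CPM. Sham replicate 6, which had the lowest Ngfr of all, had a sum of 56.2 CPM, close to the median of 59.1 CPM. Slc18a3 and Slc5a7 are themselves in this list. Ntrk3 followed the same sum, with r = 0.550 and rho = 0.529 (permutation p = 1e-05 for both, adjusted p = 0.00017 and 0.00021), 0.537 without the 2 farthest libraries, 0.572 within batch A and 0.521 within batch B. Of the 105 relations 17 had an adjusted p under 0.05 for r.

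**Figure D3:**
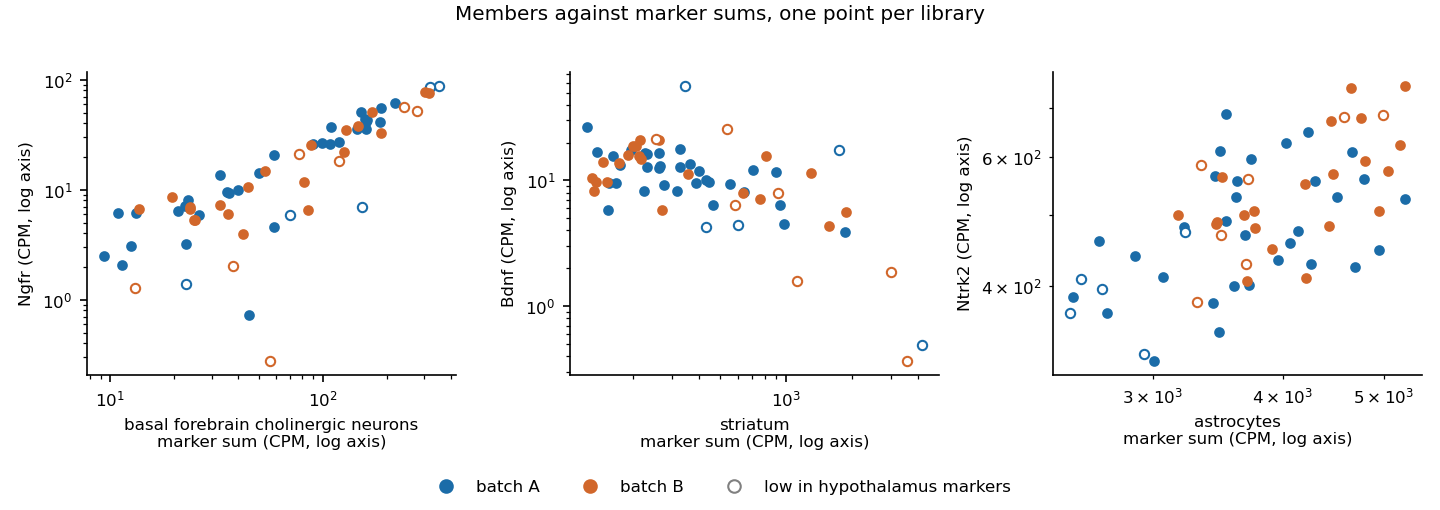
CPM of Ngfr, Bdnf and Ntrk2 against the summed CPM of marker genes of basal forebrain cholinergic neurons, striatum and astrocytes, on log axes, with 1 point per library, batches in colour and the 12 libraries low in hypothalamus markers as open circles. Ngfr rises with the cholinergic sum (r = 0.842), Bdnf falls with the striatal sum (r = -0.639) and Ntrk2 rises with the astrocyte sum (r = 0.555).

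The genes most like the other members were found in the same way. For Bdnf they were Chst8 (r = 0.816), the potassium channel gene Kcnj6 (0.812) and the proprotein convertase gene Pcsk5 (0.780). Ntrk2 was followed by Myo10 (0.808), the astrocyte glutamate transporter gene Slc1a3 (0.795) and Arhgef26 (0.788), Ntrk3 by Slc9a5 (0.766), Zmym3 (0.753) and agrin, Agrn (0.724), and Ntf3 by Rgs13 (0.724), Kctd6 (0.705) and Arpc5 (0.697). Over the 53 libraries Chst8, Kcnj6 and Pcsk5 had r = 0.672, 0.568 and 0.616 with Bdnf, and Rgs13, Kctd6 and Arpc5 had 0.348, 0.5 and 0.437 with Ntf3, where Rgs13 ranked 1332 among the tested genes. The genes named for Ntrk2 and Ntrk3 then had r of 0.754 to 0.850. The closeness of Rgs13 to Ntf3 depended on the measure, since by Spearman's rho it was 0.402 and ranked 596 among the tested genes. Between the members themselves, the closest was Ntrk3 with Ngfr (r = 0.488), and Bdnf with its receptor gene Ntrk2 had r = 0.278. Values in these libraries share their depth and dissection, and no p is given for a likeness chosen as the highest of all genes.

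Rats given less food to follow the weight of bypass rats showed no called member. BWM against Sham gave negative log2 differences for all 5, from -1.0 ± 0.71 for Ntf3 to -0.04 ± 0.13 for Ntrk2 (adjusted p of 0.590 or above by edgeR), where 0.320% of genes were called. Within batch A, which holds all BWM libraries, 5.28% of genes were called, and Ntf3 was -1.71 ± 0.73 (unadjusted p = 0.0231, adjusted p = 0.168) and Bdnf -1.01 ± 0.55 (adjusted p = 0.305). Both pooled values rested on a few libraries. Without Sham replicate 2 Ntf3 turned to 0.21 and Bdnf was -0.03, and without the 12 libraries they were -0.04 ± 0.60 and -0.10 ± 0.32. All 7 BWM libraries lay above the Sham median of Ntf3. Ntrk2 ran from 8408 to 14780 in BWM with a median of 10730. In Bypass against BWM it was 0.38 ± 0.12 higher (95% interval 0.14 to 0.62), with an unadjusted p of 0.00228 and an adjusted p of 0.204, in a comparison that called 0.343% of genes. Restricted to batch A it was 0.29 ± 0.11 (adjusted p = 0.497). All 7 BWM libraries held Ntf3 between 22.9 and 48.9 counts, a narrow range beside that of Sham. Of the 11 Bypass libraries of the same batch, 6 lay below it and 2 above it. The log2 difference of Ntf3 in Bypass against BWM was -0.59 ± 0.65 (adjusted p = 0.728 by edgeR).

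Lean against Sham called 0 genes by edgeR (2674 genes had an unadjusted p under 0.05, and DESeq2 called 29). Ntf3 had a log2 difference of -1.62 ± 0.77 (adjusted p = 0.387), Ngfr the 1.15 given above, and Bdnf -0.75 ± 0.52 (adjusted p = 0.559). Without Sham replicate 2 these were -0.41 for Ntf3 and -0.19 for Bdnf, and without the 12 libraries -0.99 ± 0.73 and -0.61 ± 0.37. In Lean rats Bdnf ran from 105 to 459.9 counts, all within the Sham range.

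The drugs moved no member past the test. PYY against Saline called 0 of the 21871 genes in edgeR (1649 with an unadjusted p under 0.05, and 6 in DESeq2), Lira against Saline 0 (456, and 2 in DESeq2) and PYY_Lira against Saline 1 (0.00457%), and the smallest adjusted p of the 15 member tests was 0.652. That was Ntf3 in PYY, with counts of 35.4, 113, 39.4 and 18.6 in the 4 PYY libraries and 12.6, 9.39, 0, 22.6, 24.6, 12.3, 25.9 and 23.4 in the 8 Saline libraries. So 3 of 4 PYY libraries exceeded every Saline library, and the highest of them, PYY replicate 2, was low in hypothalamus markers. The log2 difference was 1.83 ± 0.85 (unadjusted p = 0.0364), 1.22 ± 0.87 within batch B, and 1.02 ± 0.78 without the 12 libraries (adjusted p = 0.956).

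Ntrk2 was above every Saline library of both batches in 1 of 4 PYY and 3 of 5 Lira libraries. Beside the Saline libraries of batch B alone, 2 of 4 PYY and 3 of 5 Lira libraries were higher. Of these, PYY replicate 2 (18480) and Lira replicate 4 (18060) were low in hypothalamus markers. Ntrk2 counts were 16040, 18480, 15310 and 15010 in PYY, and 16790, 14850, 12540, 18060 and 18110 in Lira, beside 10770 to 16770 in Saline. The log2 differences were 0.22 ± 0.16 for PYY, 0.20 ± 0.15 for Lira and 0.04 ± 0.12 for PYY_Lira against Saline, with adjusted p-values of 0.696, 1 and 0.9998. Within batch B, PYY was 0.33 ± 0.16 and Lira 0.32 ± 0.15 above Saline (adjusted p = 0.485 and 1). Without the 12 libraries these were 0.35 ± 0.17 and 0.44 ± 0.17 (unadjusted p = 0.0428 and 0.0125, adjusted p = 0.7525 and 0.9245 by edgeR). Bdnf was 0.74 ± 0.58 above Saline in PYY, -0.09 ± 0.56 in Lira and -0.27 ± 0.46 in PYY_Lira (0.76 ± 0.40, 0.51 ± 0.40 and 1e-04 ± 0.32 without the 12 libraries), and each of the 4 PYY libraries lay above the Saline median of 253. These 3 comparisons use the same Saline libraries, so their values are not independent.

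The 2 control groups did not differ in a called member either. Sham against Saline called 0.0137% of genes, and the member with the largest value was Ntf3, 1.29 ± 0.77 (adjusted p = 0.479). In batch A that value was 3.96 ± 1.14 (unadjusted p = 0.00097, adjusted p = 0.170), where the Saline libraries had 12.6, 9.39 and 0 counts, and in batch B -0.54 ± 0.82. The difference between batches was -4.50 ± 1.37 (adjusted p = 0.202). Without Sham replicate 2 the pooled value was 0.52. Without the 12 libraries, which include it and the Saline library at 0, the pooled value was 0.13 ± 0.67, that of batch A 1.997 ± 1.036 and the difference between batches -2.60 ± 1.30.

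**Figure D4:**
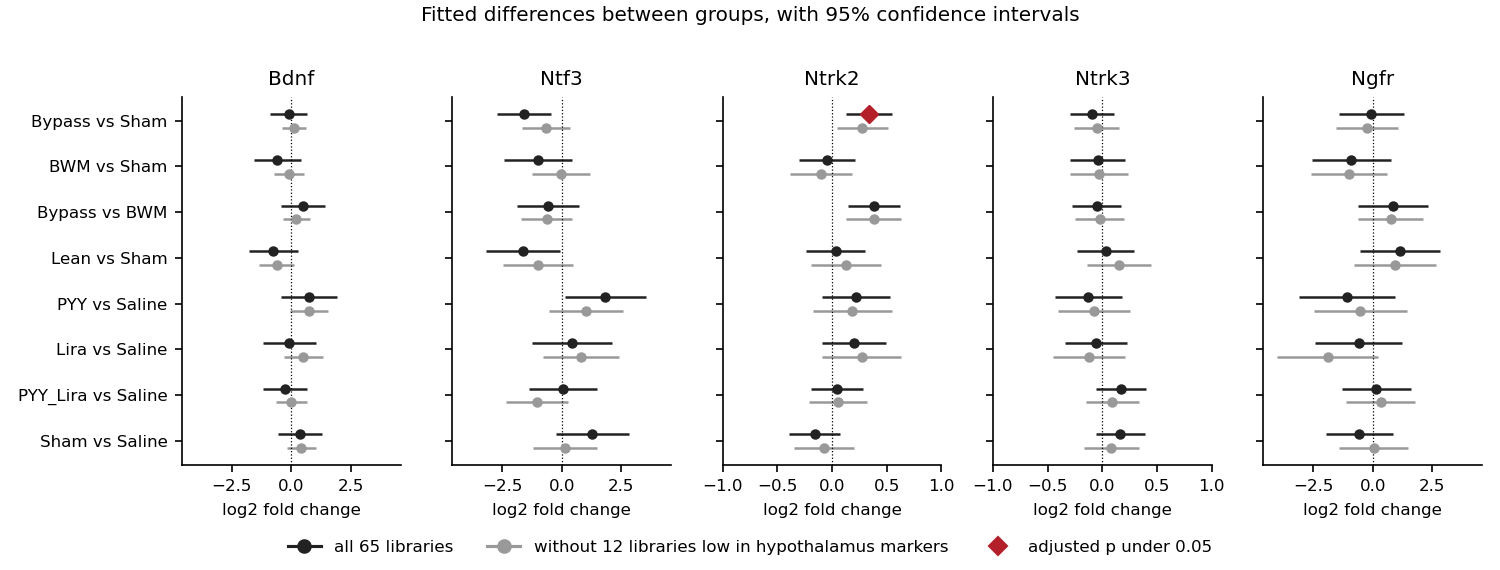
Fitted log2 fold changes of the 5 genes in 8 comparisons of groups, with 95% confidence intervals, over all 65 libraries (black) and without the 12 libraries low in hypothalamus markers (grey), with a red diamond where the adjusted p was under 0.05. The horizontal axis is narrower for Ntrk2 and Ntrk3; Ntrk2 in Bypass against Sham (0.34) is the 1 called value.

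Within a batch the groups can be ranked by their mean level. For Ntrk2 in batch A the order was Saline (14600 ± 2045, SD), PYY_Lira (14110 ± 2122), Bypass (13810 ± 2611), Lean (11790 ± 3315), Sham (11510 ± 1163) and BWM (11270 ± 2149). In batch B it was Bypass (19440 ± 1155), PYY (16210 ± 1573), Lira (16070 ± 2375), PYY_Lira (13450 ± 777.8), Saline (12740 ± 1677) and Sham (12460 ± 1908). For Bdnf the means of batch A ran from 557 ± 564 in Sham over 352 ± 96.1 in Bypass to 237 ± 117 in Saline, and those of batch B from 465 ± 134 in PYY over 449 ± 44.0 in Bypass to 215 ± 72.3 in PYY_Lira. Over the 5 genes and both batches, 50 pairs of neighbours were compared by a two-sided exact permutation test on log2(count + 1). The smallest p was 0.0476, for Ntrk3 between Sham and Bypass in batch B, and no pair passed after Benjamini-Hochberg adjustment. The groups are too small for this to show that neighbours were alike, since only 9 of the 50 pairs, and 0 of the 25 in batch B, could have passed on their own p. Neighbours were also picked by the order of these same means, which made a lack of passes likely from the start. Groups farther apart in the order were not compared by this test.

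Beyond the 5 genes, 137 genes of the pathway were listed and 133 of them tested. In Bypass against Sham 11 were called higher and 3 lower, 10.5% of those tested beside 13% of all genes, and 72 of the 133 had a positive value (92 of 133 without the 12 libraries). The median log2 difference over the list was 0.02 beside -0.02 over all tested genes. The share of positive values over all genes is not given beside these counts or those below, so no lean is read from them. By smallest p, the called genes were led by Irs1, an insulin receptor substrate (1.11 ± 0.23, adjusted p = 0.00203), and the adaptor Crkl (0.76 ± 0.16, adjusted p = 0.00203). Traf6, a partner of p75, was higher by 0.91 ± 0.21 (adjusted p = 0.00403), and the kinase gene Camk2g by 0.46 ± 0.11 (adjusted p = 0.0049).

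Of the remaining called genes, Nfkb1 (0.31), the Ras exchange factor gene Sos1 (0.37) and Cadps2 (0.75), whose product promotes release of dense-core vesicles that carry BDNF, were higher, and the transcription factor gene Usf1 was lower (-0.20). Without the 12 libraries 10 pathway genes were called higher and 1 lower, where 5.36% of all genes were called, and Irs1 was 1.13 (adjusted p = 0.0208) and Crkl 0.75 (adjusted p = 0.0216).

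The called genes were spread over the roles of the pathway, and each count stands beside the 13% of all genes called in either direction. Among 49 adaptors and kinases of Trk signalling, 5 were called higher and 1 lower, and among 16 tested partners of p75, 3 were higher. Of 17 regulators of Bdnf transcription, 2 were higher and 2 lower. Among 16 genes for the processing and release of neurotrophins 1 was called, and 12 had a positive value. None of 10 tested receptors and co-receptors was called, with Sort1 at -0.24 ± 0.19, and neither was Ntf4 (0.93 ± 0.48).

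Genes induced by neuronal activity or BDNF were not called. None of 23 passed the test in Bypass against Sham, 8 of 23 had a positive value and their median was -0.14, with Fos, an immediate early gene, at 0.33 ± 0.31 and Arc, another, at -0.17 ± 0.61. In BWM against Sham 1 pathway gene was called, the phospholipase gene Plcg2, which was higher by 1.18 ± 0.25 (adjusted p = 0.0130). In the comparisons of Lean with Sham and of PYY, Lira and PYY_Lira with Saline, 0 of 133 were called by edgeR.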

How the data were processed

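Hypothalami of 65 rats were sequenced as stranded poly-A libraries with single reads of 75 nt. Per the labels and the study's methods, the authors trimmed reads with cutadapt (1.16 in the submitters' processing notes, several versions in the methods), aligned them to Rnor_6.0 with STAR 2.7.2b and counted them per gene with featureCounts 1.6.4, strand by strand. The authors deposited these estimated counts unnormalised, and reads that fit several places or genes were given as fractions. They were rounded to whole numbers here. Genes with enough reads were kept by filterByExpr (minimum count 10, minimum total 15), leaving 21871 of 38513. Counts were scaled by TMM and tested with edgeR 4.0.16 (quasi-likelihood, robust) in a model of group and batch over all 65 libraries, and within-batch differences came from a model of every group in every batch. P-values were adjusted by Benjamini-Hochberg over all tested genes, and an adjusted p under 0.05 was a call. Intervals are 95% intervals of the fit. Levels are counts divided by DESeq2 1.42.0 size factors, kept to 4 significant digits, and TPM used the exonic length of each gene. Marker sums are in CPM, and likeness and marker relations used log2(CPM + 1) less the batch mean.

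Fits without 1 library kept the gene filter and dispersion trend of the full fit. The scripts were tested on simulated data. No 2 libraries of a group and batch were alike within sampling noise (168 pairs, lowest chi-square per degree of freedom 14.2). The labels number replicates within groups and do not say that equal numbers share a litter or day. In Lira against Saline all 5 same-numbered pairs correlated over 0.1 (0.321 to 0.611), and 4 of 5 were closest to their own number. The block by replicate number changed no call of a member there. Group membership came from the labels. The p-values of edgeR rest on the spread between libraries within groups, estimated over all 8 groups together and not for the compared groups alone.

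Named pathway genes were those past the threshold in a comparison, at most 8 by smallest p, with Ntf4 and Sort1 among those always given, and the 3 genes most like each member. Some genes that this rule or the lists hold are in the counts and sums, and their own values are not reported here. The members and lists were chosen with earlier results of these data known. The 12 libraries low in hypothalamus markers, the tests of neighbouring groups and the marker relations were added after the data were seen.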

Additional observations from a re-analysis of the deposited data

Results flagged for a closer look

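In 45 sets of 1 gene, group and batch, each of 4 to 7 libraries, the gap between the most extreme library and the next was compared with Dixon's critical value. Chance flags about 1 in 20 such sets where values are normally distributed, which was not tested for these counts. There were 7 values that stood apart. For Ngfr these were BWM replicate 2 in batch A with 1144 normalised counts (the next was 182.7), PYY replicate 4 in batch B with 992.8 (next 189.1) and Saline replicate 7 in batch B with 2065 (next 314.1). For Ntf3 they were PYY_Lira replicate 1 in batch A with 47.2 counts (next 16.6), PYY_Lira replicate 8 in batch B with 80.7 (next 20.8) and Saline replicate 6 in batch B, which was low with 12.3 (next 22.6). For Ntrk2, PYY_Lira replicate 8 in batch B had 14790 (next 13380). PYY_Lira replicate 8 is 1 of the 12 libraries low in hypothalamus markers, and the other flagged libraries are not.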

How the results depend on the processing

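Over 50 results of the members and the alternatives other than leaving out 1 library, 356 of 390 values kept their direction and side of the threshold, 6 lost the call, 3 gained it and 25 turned sign. None of the 25 was called in either form. The cause of these changes was not tested, except that fewer libraries entered some fits. Depth limits Ntf3 most, with a median of 19 reads per library and 0 in 3 libraries.

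Without a batch term, called genes numbered 5587 (Bypass against Sham), 2183 (BWM against Sham), 2339 (Lean against Sham), 2 (PYY_Lira against Saline) and 5 (Sham against Saline). Ntf3 in Bypass against Sham was then called at -1.49, and Ntrk3 turned to 0.029 in Bypass and 0.14 in BWM against Sham, and Ntrk2 to -0.031 in Lean against Sham. With the replicate number as a block, the counts were 1618, 1 (BWM against Sham), 0 (Bypass against BWM), 0 (PYY_Lira against Saline) and 0 (Sham against Saline), Ntrk2 in Bypass against Sham was 0.17 (adjusted p = 0.389), Ngfr turned to 0.56 there and Ntrk2 to -0.024 in Lean against Sham. Outside Lira against Saline same-numbered libraries share only a number (0 of 11 pairs in Bypass against Sham were closest to their own). The block changed no other call of a member.

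With only the 2 groups compared, the counts were 513 (BWM against Sham), 1 (Bypass against BWM), 32 (Lean against Sham), 0 (PYY_Lira against Saline) and 0 (Sham against Saline), Ntf3 in Bypass against Sham was called at -1.84, Ntrk3 was 0.15 in BWM and Ntrk2 -0.052 in Lean against Sham. DESeq2 called 236 (BWM against Sham), 29 (Lean against Sham), 6 (PYY), 2 (Lira), 8 (PYY_Lira) and 25 (Sham against Saline), and Ntf3 in Bypass against Sham at -1.54.

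With Saline in place of Sham, 1 gene was called for Bypass and 9 for BWM, Ntrk2 in Bypass was 0.18, Bdnf 0.22 and Ntrk3 0.070, Ntf3 in BWM 0.29 and Ntrk3 0.12, and Ntrk2 in Lean -0.13. With Sham in place of Saline, 1826 (PYY), 21 (Lira) and 3220 (PYY_Lira) were called, and Ntf3 was -0.85 in Lira and -1.25 in PYY_Lira. With both controls averaged, the counts were 29 (Bypass), 28 (PYY), 1 (Lira) and 0 (PYY_Lira), Bypass had Bdnf 0.052 and Ntrk2 0.26, BWM had Ntrk3 0.038, Lean had Ntrk2 -0.046, and Ntf3 was -0.21 in Lira and -0.60 in PYY_Lira.

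Without the 12 libraries low in hypothalamus markers, 1177 genes were called in Bypass against Sham, 671 within batch A, 0 within batch B and 122 in Bypass against BWM. Ntrk2 in Bypass against Sham was 0.28, and 0.54 within batch B, Ntf3 within batch A -0.74, and Bdnf 0.10 and, within batch A, 0.092. Against Saline, Bdnf was 0.51 in Lira and 1e-04 in PYY_Lira, Ntf3 -1.03 in PYY_Lira, and Ngfr in Sham 0.048.

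When 1 library was left out, called genes ranged from 1497 to 4863 in Bypass against Sham, 327 to 3562 within batch A, 6 to 1632 within batch B, 5 to 408 in BWM against Sham, 2 to 255 in Bypass against BWM, 0 to 1063 in Lean against Sham, 0 to 2 in PYY against Saline and 1 to 191 in Sham against Saline. In Bypass against Sham, Ntrk2 ranged from 0.29 to 0.37 (0.59 to 0.70 within batch B), Ntf3 from -1.85 to -0.44 (-2.46 to -0.75 within batch A), Bdnf from -0.24 to 0.38 (-0.96 to 0.076 within batch A), Ngfr from -0.27 to 0.16, and Ntrk3 within batch A from -0.14 to 0.067. In BWM against Sham, Ntf3 ranged from -1.15 to 0.21, Ntrk2 from -0.13 to 0.011 and Ntrk3 from -0.13 to 0.021, and Ntrk3 in Bypass against BWM from -0.11 to 0.039. In Lean against Sham, Ntrk2 ranged from -0.081 to 0.11 and Ntrk3 from -0.022 to 0.090. Against Saline, Lira ranged from -0.47 to 0.27 for Bdnf, -0.065 to 0.65 for Ntf3, -0.15 to 0.002 for Ntrk3 and -1.46 to 0.072 for Ngfr, PYY_Lira from -0.42 to 0.062 for Bdnf, -1.07 to 0.22 for Ntf3, -0.0052 to 0.12 for Ntrk2 and -0.085 to 0.72 for Ngfr, and Sham from -0.051 to 0.66 for Bdnf and -0.83 to 4e-04 for Ngfr.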
